A study of Mus musculus with 594 samples.

Results

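The genes described here are 9 mouse genes that keep the endoplasmic reticulum able to fold and clear proteins: Hspa5, Hsp90b1, Calr, Pdia4, Dnajb9, Dnajc3, Sdf2l1, Herpud1 and Xbp1. They were taken by name, with earlier results of these data known, and all 9 were found among the 11807 genes measured. Total RNA of 2 mouse pancreatic tumour cell lines, αTC1 (glucagon-producing) and βTC3 (insulin-producing), was profiled on 594 Affymetrix arrays, 299 of αTC1 and 295 of βTC3, 1, 6 or 24 h after addition of DMSO alone or of 1 of 29 compounds, most of them inhibitors of enzymes that modify chromatin. The series set out to list the genes that such compounds regulate in alpha and beta cell lines.

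Each line was grown in low-glucose medium with serum, and every compound was given at 1 dose. Of the histone deacetylase inhibitors known by name, 8 were hydroxamic acids, 3 were ortho-amino anilides and 2 were cyclic tetrapeptides. The hydroxamic acids were SAHA at 1.3 µM, trichostatin A at 0.22 µM, LBH-589 at 0.015 µM, PXD101 at 2.4 µM, ITF-2357 at 10 µM, CRA-024781 at 1.5 µM, pyroxamide at 10 µM and scriptaid at 2 µM. The anilides were MS-275 at 2.9 µM, CI-994 at 10 µM and MGCD-0103 at 1.1 µM, and the tetrapeptides were apicidin at 1.4 µM and HC-toxin at 0.12 µM. BIX-01294 at 10 µM and chaetocin at 1.7 µM inhibit histone lysine methyltransferases, AMI-1 at 10 µM inhibits arginine methyltransferases, and 5-azadeoxycytidine, zebuarine (spelled as in the labels) and RG-0108, each at 10 µM, act on DNA methylation. The remaining 10 compounds carried code names only: BRD-A94377914 at 3 µM, BRD-K17311666 at 4.3 µM, BRD-K22912318 at 5 µM, BRD-K62233722 at 3.7 µM, BRD-K90919562 at 4.1 µM, BRD-K92415738 at 3.2 µM, BRD6929 at 0.91 µM, and BRD5298, BRD8451 and BRD9773 at 10 µM each. A compound had 3 arrays per line and time, except in αTC1 at 24 h, where BRD-K62233722, BRD-K92415738, SAHA, CI-994 and scriptaid had 2 and chaetocin had 4. DMSO had 14 arrays of αTC1 at each time, and 12, 10 and 12 arrays of βTC3 at 1, 6 and 24 h. Each line descends from a tumour of a transgenic mouse in which a viral oncoprotein was driven by the promoter of its hormone gene, so each is a single transformed line and not islet tissue.

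Secretory cells fold their products in the endoplasmic reticulum (ER), and endocrine cells of the pancreas load this compartment heavily because hormone precursors pass through it in bulk. When unfolded protein builds up, the sensors IRE1, ATF6 and PERK signal to the nucleus: IRE1 splices the mRNA of Xbp1 into the form that encodes an active transcription factor, ATF6 is cut to release another, and PERK slows translation while favouring ATF4. XBP1 and ATF6 raise the ER chaperones and the machinery of ER-associated degradation, which moves misfolded proteins back to the cytosol for the proteasome. Among the genes here, Hspa5 (BiP) and Hsp90b1 (GRP94) are the main chaperones of the ER lumen, Calr is the lectin chaperone calreticulin and Pdia4 forms and rearranges disulfide bonds. Dnajb9, Dnajc3 and Sdf2l1 encode partners of BiP, Herpud1 encodes a membrane protein of the degradation complex and Xbp1 the transcription factor. The arrays measured total mRNA of each gene, so splicing of Xbp1 was not read out.

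Promoters of 5 of the genes are shown because they hold the letters through which ATF6 and XBP1 are known to raise ER chaperone genes. The 300 bases from 250 before to 50 after each annotated start were searched on both strands for the ER stress response element (CCAAT, 9 free bases, then CCACG), its shorter relative (ATTGG, 1 free base, then CCACG) and the XBP1 element TGACGTGG. The first occurred in 4 of the 9 promoters against 39 of 32851 mouse promoter windows (0.119%), the shorter relative in 1 of 9 against 12 (0.0365%), and TGACGTGG in 0 of 9 against 222 (0.676%). Because the letters were already known from ER chaperone genes, these counts describe the promoters and are no test of the 9 genes. Sequences are from RefSeq, assembly GRCm38.p6, with the 250 bases before the start printed 5′ to 3′ on the gene's strand and the matched letters in capitals.

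The Hspa5 promoter lies at chr2:34771840-34772089 on the plus strand, with the match 65 to 47 bases before the start. That of Hsp90b1 lies at chr10:86705445-86705694 on the minus strand, with 1 match 212 to 194 bases before the start and 1 read on the opposite strand 107 to 89 bases before it. The Calr promoter is at chr8:84846932-84847181 on the minus strand, with an opposite-strand match 162 to 144 bases before the start. The Dnajc3 promoter is at chr14:118937682-118937931 on the plus strand, with the match 105 to 87 bases before the start. The Herpud1 promoter is at chr8:94386179-94386428 on the plus strand and holds the shorter element 52 to 42 bases before the start.
Hspa5: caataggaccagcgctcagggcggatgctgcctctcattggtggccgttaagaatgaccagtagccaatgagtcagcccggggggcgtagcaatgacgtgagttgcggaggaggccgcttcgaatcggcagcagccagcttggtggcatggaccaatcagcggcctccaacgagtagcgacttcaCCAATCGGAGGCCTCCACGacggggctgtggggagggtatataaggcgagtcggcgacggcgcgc
Hsp90b1: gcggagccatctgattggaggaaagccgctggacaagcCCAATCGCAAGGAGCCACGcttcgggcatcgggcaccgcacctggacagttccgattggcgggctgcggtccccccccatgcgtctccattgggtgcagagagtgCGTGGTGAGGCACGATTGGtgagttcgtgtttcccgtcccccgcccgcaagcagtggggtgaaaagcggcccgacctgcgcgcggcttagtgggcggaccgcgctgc
Calr: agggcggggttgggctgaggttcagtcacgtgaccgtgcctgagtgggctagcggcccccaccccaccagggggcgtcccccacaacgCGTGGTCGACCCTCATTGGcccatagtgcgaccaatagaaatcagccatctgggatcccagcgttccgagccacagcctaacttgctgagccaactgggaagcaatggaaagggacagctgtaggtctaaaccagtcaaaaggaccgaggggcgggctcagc
Dnajc3: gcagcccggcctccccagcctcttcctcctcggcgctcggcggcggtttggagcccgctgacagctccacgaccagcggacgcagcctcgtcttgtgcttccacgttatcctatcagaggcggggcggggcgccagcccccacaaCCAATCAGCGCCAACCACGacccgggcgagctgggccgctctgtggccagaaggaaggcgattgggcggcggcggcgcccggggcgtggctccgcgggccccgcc
Herpud1: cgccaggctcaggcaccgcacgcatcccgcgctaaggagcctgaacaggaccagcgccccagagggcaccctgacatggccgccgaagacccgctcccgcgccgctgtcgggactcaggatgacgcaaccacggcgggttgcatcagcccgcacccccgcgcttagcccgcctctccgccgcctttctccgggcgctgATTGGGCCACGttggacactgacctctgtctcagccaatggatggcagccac
Pdia4, Dnajb9, Sdf2l1 and Xbp1 held none of these letters in the window. A match is a description of the sequence, not evidence of a site in use, and no binding was measured in these cells.

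Each gene is given as log2 of the deposited array intensity, and a gene's level was read from 1 probe set, so levels are compared between samples of a gene and not between genes. Array medians lay between 4.36 and 4.73 on the log2 scale, the median gene had a mean level of 5.01, and all 9 genes lay above it. The lines matched their labels in part. In DMSO at 24 h, all 6 alpha cell markers measured were above the median gene in αTC1 (Gcg at 12.32) and 6 of 8 beta cell markers in βTC3 (Ins2 at 13.2), while βTC3 also had Gcg at a mean of 8.79, with arrays from 6.18 to 10.43. In βTC3, 4 of the 6 alpha cell markers were above the median gene, with Ttr at 12.87, and so was Sst, the somatostatin gene of delta cells, at 12.71. In αTC1, 3 of the 8 beta cell markers were above it and 1 of 6 acinar and duct markers, Cela1 at 6.05. The labels do not say whether the lines hold more than 1 kind of cell, and the part of these transcripts in the results was not tested. Of the 8 markers of fibroblasts, endothelium and blood, 0 were above the median gene in either line. The labels do not say whether replicates were separate cultures, so the p-values measure the spread between these arrays, which may be technical, and the number of arrays limits the precision. In bulk RNA, fewer cells with a transcript and less of it per cell cannot be told apart.

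Without any compound, βTC3 cells held more mRNA of all 9 genes than αTC1 cells. At 24 h the DMSO arrays of βTC3 were 1.32-fold (Herpud1) to 9.27-fold (Dnajc3) higher, and 7 of the 9 genes had no overlap between the 14 αTC1 and the 12 βTC3 arrays. Overlap was not counted over all genes, so how unusual this count is was not measured. The largest difference belonged to Dnajc3, which encodes P58IPK, a BiP partner and inhibitor of PERK. Among the other genes of ER folding, 14 of 15 measured were higher in βTC3 and 1 was lower. In these 2 lines, line and every other property of the lines cannot be told apart.

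For Hspa5, the αTC1 DMSO arrays at 24 h ran from 10.37 through a median of 10.6 to 10.91, and the βTC3 arrays from 11.19 through 11.42 to 11.73. Every βTC3 array stood above every αTC1 array, with a difference of 0.87 ± 0.0564 (SE; limma, adjusted p = 6.29e-31), or 1.83-fold. Hsp90b1 ran from 9.88 through 10.02 to 10.24 in αTC1 and from 10.75 through 11.47 to 11.77 in βTC3, again without overlap and 1.36 ± 0.0781 higher (adjusted p = 2.7e-35). Calr ran from 10.13 through 10.37 to 10.74 in αTC1 and from 10.75 through 11.45 to 11.99 in βTC3, so that the highest αTC1 array and the lowest βTC3 array nearly met, and the difference was 1.02 ± 0.0715 (adjusted p = 6.29e-28). The disulfide isomerase gene Pdia4 spread more widely within each line, from 5.36 through 6.48 to 6.82 in αTC1 and from 6.88 through 8.13 to 8.96 in βTC3, and differed by 1.74 ± 0.189 (adjusted p = 2.81e-15).

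Dnajc3 and Sdf2l1, which encode BiP partners, differed most of the 9 genes. Dnajc3 ran from 6.43 through 7.23 to 7.44 in αTC1 and from 9.43 through 10.38 to 10.85 in βTC3, a gap between the groups wider than the spread within either, and differed by 3.21 ± 0.1 (adjusted p = 1.65e-63). Sdf2l1 ran from 6.18 through 7.18 to 7.54 and from 8.08 through 9.24 to 10.06, and differed by 2.15 ± 0.149 (adjusted p = 3.91e-28). Dnajb9, which hands misfolded clients to degradation and holds back IRE1, ran from 7.27 through 7.87 to 8.38 and from 8.7 through 9.35 to 9.7, and differed by 1.44 ± 0.082 (adjusted p = 7.72e-36). In all 3 genes the arrays of the lines did not overlap.

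Herpud1 and Xbp1 were the 2 genes whose arrays overlapped. Herpud1 ran from 8.24 through 8.46 to 9.12 in αTC1 and from 8.58 through 8.94 to 9.41 in βTC3, with a difference of 0.40 ± 0.0831 (adjusted p = 8.35e-06). Xbp1 ran from 9.32 through 9.61 to 9.93 in αTC1 and from 9.75 through 10.46 to 10.7 in βTC3, with a difference of 0.80 ± 0.0747 (adjusted p = 4.18e-19).

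The same 9 of 9 genes were higher in βTC3 at 1 h and at 6 h, and 8 of 9 did not overlap at each of these times, again without a count over all genes. The DMSO arrays at the 3 times are different arrays. Across all genes, 30.3%, 28.4% and 28.4% were called higher in βTC3 at 1, 6 and 24 h, with a median difference near 0 (0, -0.029 and -0.022), against medians of 1.47, 1.56 and 1.36 over the 9 genes. Called here and below means a limma p under 0.05 after Benjamini-Hochberg adjustment over all 11807 genes. At 6 h the difference was widest in Dnajc3 (3.39, or 10.5-fold) and Sdf2l1 (2.71, or 6.56-fold) and narrowest in Herpud1 (0.56) and Xbp1 (0.95).

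**Figure D1:**
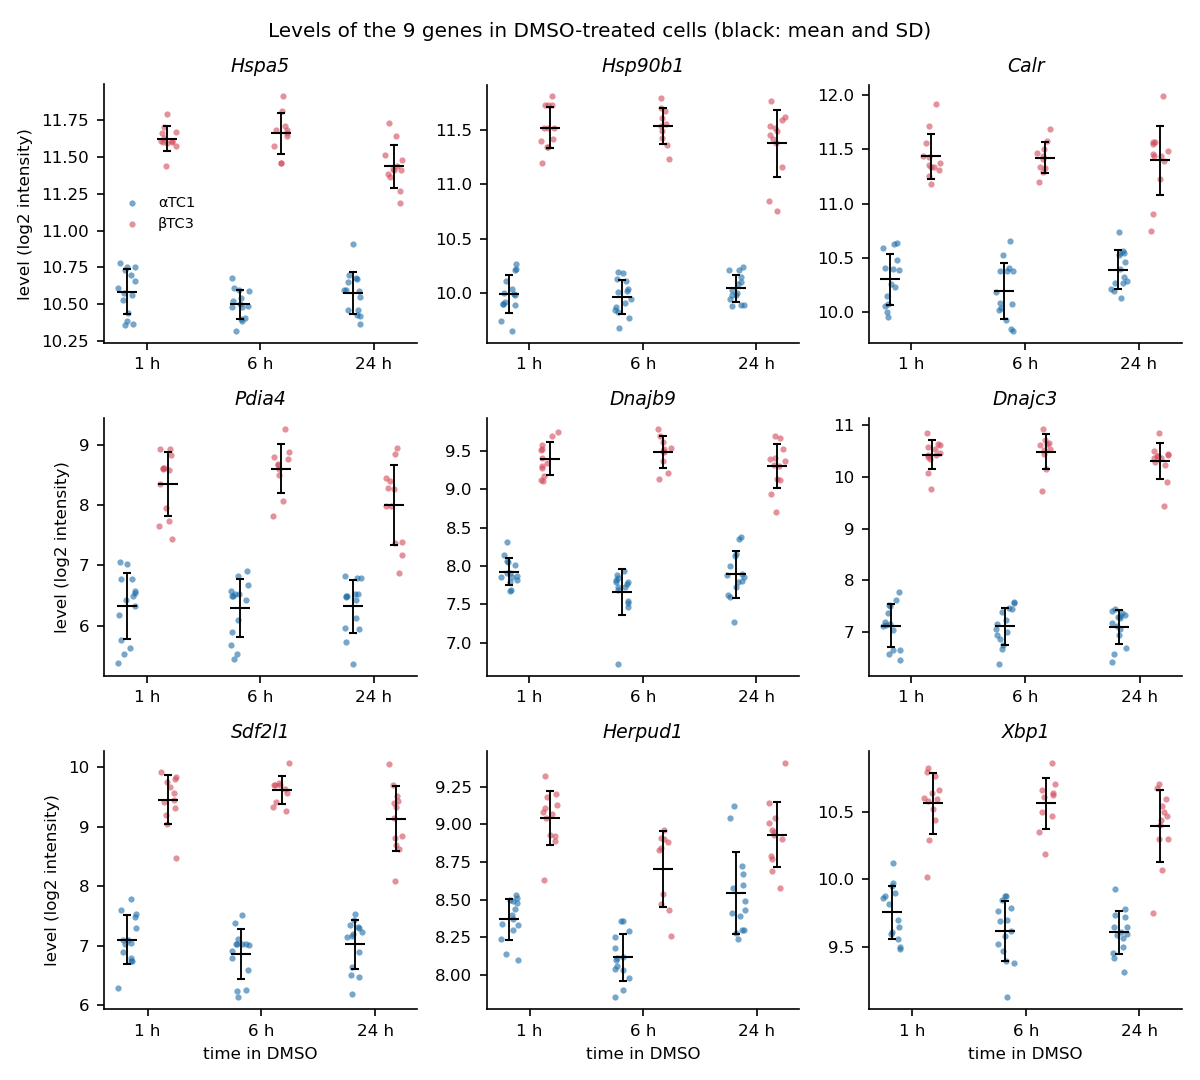
Level (log2 intensity) of each of the 9 genes in every DMSO array of αTC1 and βTC3 at 1, 6 and 24 h, with the mean and SD of each group. The βTC3 arrays stand above the αTC1 arrays without overlap in 7 of 9 genes at 24 h (not counted over all genes). The mean difference is widest in Dnajc3 (3.21) and narrowest in Herpud1 (0.40).

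The other genes of the compartment did not all follow. At 24 h the other ER folding genes had a median difference of 1.04, led by Ero1b (4.48 ± 0.11), the pancreatic oxidase that recharges disulfide isomerases, Pdia5 (2.54), Creld2 (2.48) and Pdia6 (2.24). Of 15 other genes of ER-associated degradation, 10 were higher and 4 lower (median 0.69), led by Edem1 (1.46), Derl1 (1.45), Derl3 (1.42) and Sel1l (1.35). Of 15 translocation genes, which carry new chains into the ER, 11 were higher and 1 lower (median 0.88; Spcs1 1.3, Sec11c 1.29). Over all genes, 30.7% were called lower in βTC3 at 24 h. Of the sensors, 0 of 5 were higher and 3 lower in βTC3 (Atf6b -0.72, Ern1 -0.32, Atf6 -0.22). Of 17 target genes of PERK and ATF4, 3 were higher and 9 lower (median -0.24), with Phgdh at -1.43 and Ppp1r15a at -1.35. The cytosolic heat shock genes were split, 5 higher and 5 lower of 11.

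Few of the genes were called between times in DMSO. In αTC1 at 6 h against 1 h, Dnajb9 (-0.27 ± 0.077, adjusted p = 0.0389) and Herpud1 (-0.25 ± 0.0684, adjusted p = 0.0231) fell, where 1.63% of all genes were called. In βTC3, Herpud1 fell at 6 h (-0.35 ± 0.0779, adjusted p = 0.00262; 1.49% of genes called) and Hspa5 fell at 24 h (-0.17 ± 0.0405, adjusted p = 0.00139; 10.3% called). All 9 changes of βTC3 at 24 h were negative, from -0.03 to -0.32, with 5 at an unadjusted p under 0.05, and 4 were called with plate as a random block. At 24 h in αTC1, limma called 0 of 9 (2 at an unadjusted p under 0.05), where 5.06% of genes were called, and 1 with plate as a random block. Both αTC1 calls and the βTC3 call for Herpud1 were lost in a fit without the batch term.

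At 1 h almost none of these genes were called under the compounds. Of 261 combinations of 9 genes and 29 compounds, limma called 0 in αTC1 (17 had an unadjusted p under 0.05) and 1 in βTC3 (21 unadjusted), where 0.0216% of all gene and compound combinations were called higher and 0.0111% lower in αTC1, and 0.071% and 0.0234% in βTC3. The single call was Herpud1 under CRA-024781, with arrays at 8.33, 8.66 and 9.12, of which 1 lay under the DMSO arrays (8.63 through 9.08 to 9.32), and a change of -0.35 ± 0.082 (adjusted p = 0.0247; 0.288% of all genes called lower). This call was lost without the batch term, with plate as a random block, with only the arrays compared, and without replicate 1 or replicate 2. Averaged over the 8 hydroxamic acids, Herpud1 was lower in βTC3 at 1 h (-0.18 ± 0.0441, adjusted p = 0.0197; 0.906% of genes called), while in αTC1 the same average was -0.16 ± 0.0478 and was not called (adjusted p = 0.115; 0.593% of genes called).

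At 6 and 24 h the 2 lines diverged. Most calls in αTC1 were rises: 70 of 261 combinations (26.8%) were called higher and 12 (4.6%) lower at 6 h. At 24 h 79 (30.3%) were higher and 18 (6.9%) lower. Most of the 261 were not called at either time. Over all genes 11.2% were called higher and 9.58% lower at 6 h, then 10.6% and 10.7% at 24 h. In βTC3, 52 (19.9%) were higher and 31 (11.9%) lower at 6 h (all genes 11.3% and 10.7%). The share lower at 6 h was thus near that of all genes. At 24 h in βTC3, 13 (4.98%) were higher and 68 (26.1%) lower (all genes 9.49% and 8.73%). Without the batch term βTC3 had 33 higher at 6 h, and 8 higher and 40 lower at 24 h. In αTC1 at 6 h the higher calls were 106 with plate as a random block, and the lower calls were 5 with only the arrays compared and 6 to 7 without 1 replicate of every compound. At least 1 of the genes was called for 20 and 21 of 29 compounds in αTC1 at 6 and 24 h, and for 21 and 20 in βTC3. All compounds of a line and time share the same DMSO arrays, so their counts are not independent.

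**Figure D2:**
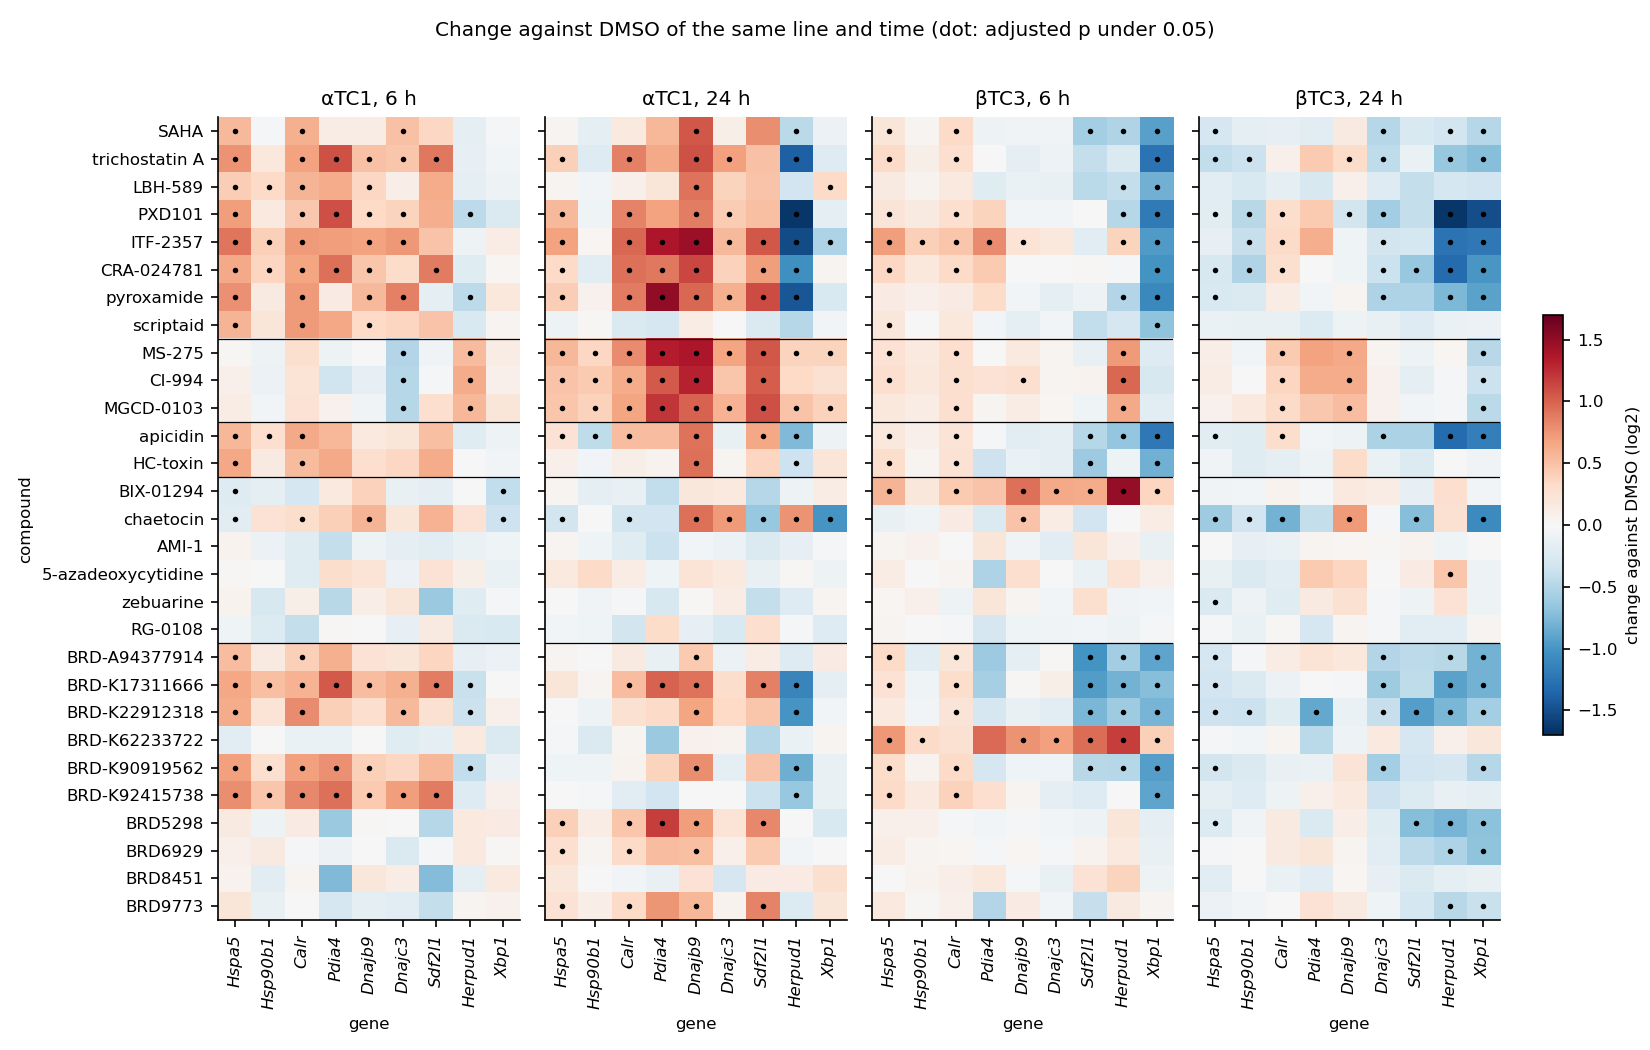
Change against DMSO (log2, colour) of the 9 genes (columns) for each of the 29 compounds (rows) in αTC1 at 6 and 24 h and in βTC3 at 6 and 24 h, with a dot where the adjusted p was under 0.05. Rises dominate both αTC1 panels (70 and 79 dots against 12 and 18 falls), and falls dominate βTC3 at 24 h (68 against 13 rises).

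Gene by gene, Hspa5 was called higher with 15 compounds and lower with 2 in αTC1 at 6 h and higher with 12 and lower with 1 at 24 h; in βTC3 it was higher with 16 and lower with 0 at 6 h, then higher with 0 and lower with 13 at 24 h. Dnajb9 was higher with 20 compounds and lower with 0 in αTC1 at 24 h, more compounds than for any other of the 9 genes in that line. Calr was higher with 16 compounds in βTC3 at 6 h and still with 7 at 24 h, and lower with 0 and 1. In αTC1 Calr was higher with 16 and 13 compounds at these times and lower with 0 and 1. Xbp1 was lower with 15 compounds in βTC3 at 6 h and with 18 at 24 h, against 2 compounds at each time in αTC1; it was higher with 2 in βTC3 at 6 h and 0 at 24 h, and with 0 and 3 in αTC1. Herpud1 fell at 24 h with 12 compounds in αTC1 and 13 in βTC3, and rose with 3 and 1. Dnajc3 rose with 8 and 7 compounds in αTC1 at 6 and 24 h and fell with 3 and 0, while in βTC3 it rose with 2 at 6 h and fell with 11 at 24 h. Hsp90b1 rose with 7 and 3 compounds in αTC1 at 6 and 24 h and fell with 0 and 1, and it fell with 6 in βTC3 at 24 h. Sdf2l1 was higher with 10 compounds and lower with 1 in αTC1 at 24 h and lower with 4 in βTC3, and Pdia4 was higher with 8 in αTC1 and lower with 1 in βTC3 at that time. At 6 h Sdf2l1 was higher with 4 compounds and lower with 0 in αTC1, and higher with 2 and lower with 7 in βTC3. Over all genes, 8.73% to 11.3% of combinations were called in 1 direction per line and time. Counts of 3 or fewer of the 29 compounds were near or below that share.

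The hydroxamic acids raised the chaperones of αTC1 within 6 h. Over their 24 arrays, 7 of the 9 genes were higher, 1 was lower and Xbp1 was not called, where 26.6% of all genes were higher and 24.3% lower. Hspa5 arrays ran from 10.81 through 11.22 to 11.59, against 10.32 through 10.5 to 10.68 in DMSO. Every treated array was above every DMSO array, and the mean change was 0.67 ± 0.0307 (adjusted p = 1.2e-31). Calr ran from 10.45 through 10.86 to 11.06, against 9.83 through 10.14 to 10.66 in DMSO, and rose by 0.65 ± 0.0596 (adjusted p = 7.85e-16), with some overlap. Pdia4 rose by 0.67 ± 0.161, Sdf2l1 by 0.53 ± 0.139, Dnajc3 by 0.47 ± 0.0798, Dnajb9 by 0.42 ± 0.0695 and Hsp90b1 by 0.22 ± 0.0546 (largest adjusted p = 0.000822). Hsp90b1 was the least secure of these, at 0.09 (adjusted p = 0.149) once each array was centred on its median, and Xbp1 then stood at -0.13 (adjusted p = 0.0451). Centring shifted the median of all genes by -0.127 in this comparison.

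Herpud1 was the exception. Its αTC1 arrays at 6 h ran from 7.47 through 7.89 to 8.18, against 7.85 through 8.1 to 8.36 in DMSO, and it fell by 0.24 on the log2 scale (SE 0.0561, adjusted p = 0.000183), with much overlap. At 24 h the 22 hydroxamic acid arrays of αTC1 ran from 6.78 through 7.37 to 8.27, against 8.24 through 8.46 to 9.12 in DMSO, so that the groups touched only at the edge. The change was -1.04 ± 0.068 (adjusted p = 3.82e-22), a 2.06-fold lower level.

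Of the other 8 genes in αTC1 at 24 h, 6 were higher, where 26.1% of genes were higher and 24.3% lower. Dnajb9 ran from 7.73 through 8.94 to 9.87, against 7.27 through 7.87 to 8.38 in DMSO, and rose by 0.95 ± 0.0732 (adjusted p = 8.73e-19). Calr rose by 0.56 ± 0.0543, Pdia4 by 0.70 ± 0.157, Sdf2l1 by 0.61 ± 0.133, Dnajc3 by 0.39 ± 0.0896 and Hspa5 by 0.30 ± 0.046. Hsp90b1 (-0.07, adjusted p = 0.475) and Xbp1 (-0.12, adjusted p = 0.116) were not called. Several of the hydroxamic acids gave the largest single changes in αTC1. With ITF-2357 at 6 h Hspa5 stood at 11.23, 11.49 and 11.59, all above DMSO (0.91 ± 0.0591), and at 24 h Dnajb9 stood at 9.18, 9.87 and 9.16 (1.45 ± 0.137). With pyroxamide at 24 h Pdia4 stood at 8.29, 7.56 and 7.79, above all DMSO arrays (1.51 ± 0.299). With PXD101 at 24 h Herpud1 stood at 7.03, 7.09 and 6.98, more than a full log2 unit under the lowest DMSO array (-1.66 ± 0.13, adjusted p = 7.36e-18). With scriptaid limma called 0 of the 9 genes in αTC1 at 24 h (1 at an unadjusted p under 0.05), where 0.423% of all genes were called.

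In βTC3 the same class gave a smaller rise of fewer genes at 6 h and falls at 24 h. At 6 h, 3 genes were higher and 3 lower, where 26.2% of all genes were higher and 24% lower. These counts of the 9 genes were near the shares of all genes. Hspa5 ran from 11.65 through 11.88 to 12.46, against 11.46 through 11.67 to 11.91 in DMSO, and rose by 0.29 ± 0.0378 (adjusted p = 6.14e-10), with overlap. Calr rose by 0.27 ± 0.0435, and Hsp90b1 by 0.13 ± 0.0426 (adjusted p = 0.00748), a call lost without the batch term (0.11, adjusted p = 0.117). Xbp1 fell most: its arrays ran from 9.11 through 9.62 to 10.27, against 10.19 through 10.62 to 10.86 in DMSO, nearly clear of each other, and the change was -0.99 ± 0.0609 (adjusted p = 6.09e-24), a 1.99-fold lower level. Herpud1 (-0.26 ± 0.0683, adjusted p = 0.000888) and Sdf2l1 (-0.27 ± 0.108, adjusted p = 0.0342) were also lower. Pdia4 (0.20), Dnajb9 (-0.04) and Dnajc3 (-0.04) were not called.

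At 24 h in βTC3 0 of the 9 genes were higher and 6 were lower under the hydroxamic acids, where 22.5% of all genes were higher and 20.7% lower. Herpud1 ran from 7.28 through 8.29 to 8.78, against 8.58 through 8.94 to 9.41 in DMSO, and fell by 0.80 on the log2 scale (SE 0.0591, adjusted p = 1.36e-19). Xbp1 ran from 8.81 through 9.67 to 10.45, against 9.75 through 10.46 to 10.7, and fell by 0.78 (SE 0.0639, adjusted p = 1.09e-17). In both genes the treated medians lay under the lowest DMSO array. Dnajc3 (-0.38 ± 0.0586), Hsp90b1 (-0.31 ± 0.0513), Hspa5 (-0.23 ± 0.0362) and Sdf2l1 (-0.36 ± 0.124) also fell, the last of these no longer called without the batch term (adjusted p = 0.0607). Calr (0.09), Pdia4 (0.10) and Dnajb9 (0.00) were not called. PXD101 gave the largest falls, with Xbp1 at 8.81, 8.99 and 9.25 (-1.51 ± 0.121, adjusted p = 5.1e-18) and Herpud1 at 7.49, 7.53 and 7.28 (-1.65 ± 0.112, adjusted p = 1.85e-21), all under the lowest DMSO array. Of the 8 compounds, scriptaid and LBH-589 had 0 of 9 genes called by limma in βTC3 at 24 h (0 and 5 at an unadjusted p under 0.05), where 0.0508% and 6.31% of all genes were called.

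The other genes of the pathway moved in both directions under this class. In αTC1 at 6 h under the hydroxamic acids, 12 of 15 other folding genes were higher and 3 lower (median 0.33 against -0.013 over all genes; Ero1b 2.21 ± 0.0729, Creld2 1.04, Ero1a 1.02, Dnajb11 0.64). Of 15 other degradation genes 9 were higher and 1 lower (median 0.22; Edem3 1.04, Derl3 0.69). The sensor Atf6 was higher by 1.03. The PERK and ATF4 targets were mixed, 8 higher and 5 lower of 17 (Atf3 1.51, Vldlr -1.51). At 24 h in αTC1, 11 folding genes were higher and 3 lower (median 0.44 against 0.004; Ero1b 2.41, Dnajc10 0.87), while 15 of 17 PERK and ATF4 targets were lower and 1 higher (median -0.6; Nupr1 -2.23, Trib3 -1.17, Atf3 1.82). In βTC3 at 24 h, 2 of 15 folding genes were higher and 8 lower (median -0.18 against 0.007; Fkbp2 -0.59, Manf -0.58, Creld2 -0.49), and 12 of 17 PERK and ATF4 targets were lower and 1 higher (median -0.48). Alpha cell markers moved beside these changes, with 4 of 6 lower in αTC1 at both 6 and 24 h, and 5 of 8 beta cell markers were lower in βTC3 at both times. In αTC1 at 24 h, 3 of 5 markers of other islet hormone cells, 3 of 6 acinar and duct markers and 2 of 8 markers of fibroblasts, endothelium and blood were higher, and 4 of 8 beta cell markers were lower; the part of the markers in the result was not tested.

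**Figure D3:**
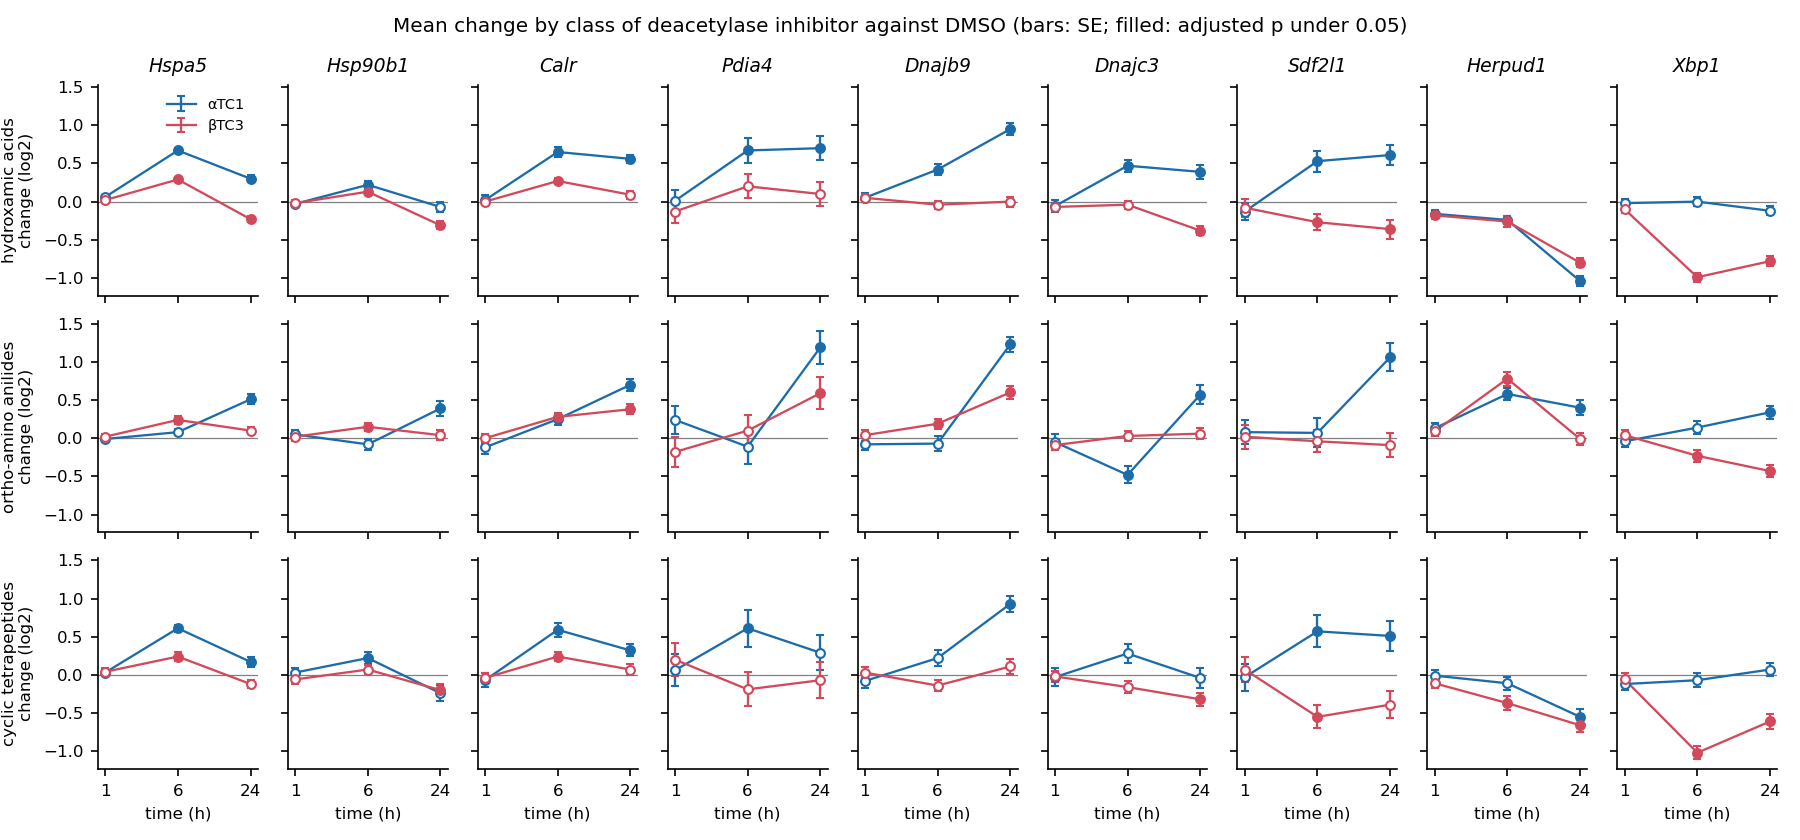
Mean change against DMSO (log2) with its standard error for the 9 genes at 1, 6 and 24 h under each of the 3 classes of deacetylase inhibitor, in αTC1 and βTC3, with filled points where the adjusted p was under 0.05. Herpud1 in αTC1 at 24 h is -1.04 for the hydroxamic acids, -0.55 for the cyclic tetrapeptides and 0.40 for the anilides, whose doses differ, and Hspa5 under the hydroxamic acids is 0.30 in αTC1 and -0.23 in βTC3 at that time.

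The ortho-amino anilides MS-275, CI-994 and MGCD-0103 had 3 of the 9 genes called in αTC1 at 6 h and all 9 at 24 h, with Herpud1 higher at both times. At 6 h the 9 anilide arrays of αTC1 had Herpud1 at 8.52 through 8.75 to 9.02, all above the DMSO arrays (7.85 to 8.36), a change of 0.58 ± 0.0769 (adjusted p = 3.87e-09). CI-994 gave the largest single rise, with arrays at 9.02, 8.53 and 8.75 (0.63). Dnajc3 was lower (-0.48 ± 0.11, arrays from 6.04 through 6.47 to 6.64, adjusted p = 0.000296) and Calr was higher (0.25 ± 0.0819, adjusted p = 0.0165). The other 6 genes were not called, among them Hspa5 (0.08, adjusted p = 0.203). Over all genes 26.6% were called, near the share among the 9 at this time.

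By 24 h all 9 genes were higher in αTC1 under the anilides, where 21.2% of all genes were called higher. Hspa5 ran from 10.96 through 11.06 to 11.22, Hsp90b1 from 10.25 through 10.36 to 10.49 and Calr from 10.89 through 11.07 to 11.29, each above every DMSO array. Their changes were 0.51 ± 0.064 (adjusted p = 2.69e-10), 0.39 ± 0.0992 (adjusted p = 0.000589) and 0.70 ± 0.0755 (adjusted p = 1.22e-12). Dnajb9 ran from 8.24 through 9.11 to 9.24, with 1.23 ± 0.102 (adjusted p = 4.89e-17), and overlapped DMSO through its lowest array only. Pdia4 rose by 1.19 ± 0.218, Sdf2l1 by 1.06 ± 0.185, Herpud1 by 0.40 ± 0.0946 and Xbp1 by 0.34 ± 0.0859. Dnajc3 rose by 0.57 ± 0.125, a value of 0.31 (adjusted p = 0.103) without the batch term. MS-275 and MGCD-0103 each had all 9 genes called higher, and CI-994, with 2 arrays, had 6; 18.2%, 16.1% and 15.2% of all genes were called higher with these 3.

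In βTC3 the anilides raised 5 genes and lowered 1 at 6 h, and raised 3 and lowered 1 at 24 h, where 29.4% and 43.7% of all genes were called. At 24 h the share of the 9 genes called was therefore near that of all genes. Herpud1 at 6 h ran from 9.06 through 9.49 to 10.08, above every DMSO array (8.26 to 8.96), and rose by 0.78 ± 0.0895 (adjusted p = 6.25e-11). Calr (0.28), Hspa5 (0.24), Dnajb9 (0.19) and Hsp90b1 (0.15) were also higher at 6 h and Xbp1 was lower (-0.23). At 24 h Herpud1 stood at -0.01 and was not called. Dnajb9 at 24 h ran from 9.49 through 9.83 to 10.11, overlapping the upper DMSO arrays, and rose by 0.60 ± 0.0838 (adjusted p = 5.5e-09). Calr rose by 0.38 ± 0.0649 and Pdia4 by 0.59 ± 0.209 (adjusted p = 0.016), the latter lost without the batch term (0.38, adjusted p = 0.273) and without replicate 3 (0.46, adjusted p = 0.0968). Xbp1 ran from 9.53 through 9.86 to 10.13 and was lower by -0.43 ± 0.0831 (adjusted p = 7.85e-06), while Hspa5 (0.10, adjusted p = 0.0767) was not called.

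Around them, 10 of 15 other folding genes were higher and 2 lower in αTC1 at 24 h (median 0.4 against -0.014; Ero1b 2.89 ± 0.155, Pdia5 0.94, Ero1a 0.87, Dnajc10 0.73), against 6 higher and 4 lower in βTC3 (median 0.13; Ero1a 0.87, Ero1b 0.78). Of the 17 PERK and ATF4 targets, 3 were higher and 6 lower in αTC1 (Atf3 2.26, Vldlr -1.8) and 7 higher and 3 lower in βTC3. In αTC1 at 24 h, 2 of 6 alpha cell markers were higher and 2 lower, 3 of 8 beta cell markers were lower, and 2 of 5 markers of other islet hormone cells, 2 of 6 of acinar and duct cells and 2 of 8 of fibroblasts, endothelium and blood were higher; in βTC3, 4 of 8 beta cell markers were lower. The part of the markers in the result was not tested. The differences between anilides and hydroxamic acids were not tested, since doses differed.

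The cyclic tetrapeptides apicidin and HC-toxin, with 6 arrays, raised Hspa5 in αTC1 and lowered Xbp1 in βTC3 at 6 h. In αTC1 at 6 h Hspa5 ran from 11 through 11.07 to 11.21, above every DMSO array, and rose by 0.61 ± 0.0458 (adjusted p = 3.45e-19). With it Pdia4 (0.61), Calr (0.59), Sdf2l1 (0.57) and Hsp90b1 (0.22) were higher, 5 genes in all, where 39.1% of all genes were called, but 2 remained called without the batch term and 3 without replicate 3. In αTC1 at 24 h Dnajb9 ran from 8.42 through 8.64 to 8.96, again clear of DMSO (0.93 ± 0.107), Sdf2l1 (0.51), Calr (0.32) and Hspa5 (0.17) were higher, and Herpud1 was lower (-0.55 ± 0.099, adjusted p = 5.08e-06); 36% of genes were called. In βTC3 at 6 h Xbp1 ran from 9.12 through 9.56 to 10.01, under every DMSO array, with -1.02 ± 0.0859 (adjusted p = 1.31e-16; 38.9% of genes called), Sdf2l1 (-0.55) and Herpud1 (-0.37) were lower, and Hspa5 and Calr were each higher by 0.24. At 24 h in βTC3, 0 of the 9 genes were higher and 4 were lower (25.5% called), with Herpud1 at -0.66 ± 0.0861, Xbp1 at -0.61 ± 0.0931, Dnajc3 at -0.32 and Hsp90b1 at -0.20.

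By compound in βTC3 at 24 h, apicidin had 1 gene called higher and 4 lower (36.1% of all genes called), with Herpud1 at 7.45, 7.55 and 7.51, a change of -1.31. HC-toxin had 0 of 9 called by limma (2 at an unadjusted p under 0.05; 2.2% of all genes called), with Herpud1 at 8.72, 8.97 and 9.04, all within the DMSO range (-0.01), and Xbp1 at -0.06. The doses of the 2 compounds differed, and their difference was not tested. Beside these values, 4 of 6 alpha cell markers were lower in αTC1 at 6 h under the class. In αTC1 at 24 h, 2 of 6 alpha cell markers were higher and 1 lower, and 1 of 8 beta cell markers was higher and 3 lower. In βTC3, 5 of 8 beta cell markers were lower at 6 and 24 h. The part of the markers in the result was not tested.

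BIX-01294, an inhibitor of the G9a and GLP histone methyltransferases, raised 7 of the 9 genes in βTC3 at 6 h, where 5.3% of all genes were called higher. Herpud1 stood at 10.24, 10.49 and 10.17, against DMSO arrays from 8.26 through 8.83 to 8.96. Every treated array was more than a log2 unit above every DMSO array, and the change was 1.50 ± 0.121 (adjusted p = 3.32e-16), or 2.83-fold, the largest rise of any of the 9 genes in any comparison of a compound with DMSO in βTC3 at 6 h. Dnajb9 stood at 10.64, 10.46 and 10.45 against 9.13 through 9.51 to 9.78 (0.94 ± 0.0889, adjusted p = 2.73e-13). Hspa5 stood at 12.27, 12.16 and 12.23 against 11.46 through 11.67 to 11.91 (0.58 ± 0.0668, adjusted p = 4.2e-10). Neither gene overlapped DMSO, nor did Dnajc3 at 11.24, 11.27 and 11.27 (0.65 ± 0.0918, adjusted p = 1.87e-07) or Calr at 11.83, 11.76 and 11.77 (0.45 ± 0.0768, adjusted p = 1.7e-05).

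Sdf2l1 at 10.04, 10.25 and 9.9 (0.63 ± 0.191, adjusted p = 0.0215) and Xbp1 at 11.12, 10.82 and 11.01 (0.37 ± 0.108, adjusted p = 0.0144) overlapped DMSO. Sdf2l1 was no longer called without the batch term (0.45, adjusted p = 0.342) or without any 1 replicate, and Xbp1 without replicate 1 or replicate 2. Hsp90b1 (0.19, adjusted p = 0.0918) and Pdia4 (0.49, adjusted p = 0.292) were not called. Within each of the 3 batches all 9 genes were higher than DMSO, with Herpud1 up by 1.34 to 1.65 and Hspa5 by 0.46 to 0.6.

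The code-named BRD-K62233722 also had 7 of the 9 genes called higher at that time in βTC3, where 1.58% of all genes were called higher. Herpud1 stood at 9.75, 9.96 and 9.93 (1.17 ± 0.123, adjusted p = 3.36e-11, or 2.26-fold), Hspa5 at 12.23, 12.4 and 12.42 (0.74 ± 0.0679, adjusted p = 2.12e-13) and Dnajb9 at 10.32, 10.31 and 10.16 (0.77 ± 0.0904, adjusted p = 1.69e-09). These 3 genes and Sdf2l1, at 10.26, 10.45 and 10.84 (0.95 ± 0.194, adjusted p = 0.00069), had no overlap with DMSO. Dnajc3 stood at 11.33, 11.33 and 10.68, with the last array inside the DMSO range (0.70 ± 0.0934, adjusted p = 5.56e-08). Hsp90b1 (0.33 ± 0.0766, adjusted p = 0.0056) and Xbp1 (0.41 ± 0.109, adjusted p = 0.0249) were also called, Calr (0.26) and Pdia4 (0.96 ± 0.286) were not (adjusted p = 0.0618 for each), and the 7 calls became 3 without the batch term and 4 without replicate 3. All 9 genes were again higher than DMSO within each of the 3 batches, Herpud1 by 0.91 to 1.45 and Hspa5 by 0.52 to 0.96. Both compounds share the DMSO arrays of βTC3 at 6 h, so the likeness of their values is not evidence that they act alike.

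In αTC1 at that time 0 of the 9 genes were called higher with either compound. With BIX-01294, Herpud1 in αTC1 at 6 h stood at 8.27, 8.05 and 7.95 (0.00, adjusted p = 0.99), within the DMSO range of 7.85 to 8.36. Hspa5 stood at 10.23, 10.33 and 10.26, at or under the low end of DMSO (-0.22 ± 0.0579, adjusted p = 0.0151), and Xbp1 was lower (-0.42 ± 0.117, adjusted p = 0.0201); 4.38% of genes were called, and both calls were lost without the batch term and without any 1 replicate. Dnajb9 in αTC1 at 6 h stood at 7.81, 8.02 and 8.31 with BIX-01294, in part above the DMSO arrays (6.72 to 7.93), and higher than DMSO within each of 3 batches (0.26 to 0.69), but was not called (0.39 ± 0.131, adjusted p = 0.0706). With BRD-K62233722, Herpud1 stood at 8.2, 8.6 and 8.12 (0.17) and Hspa5 at 10.39, 10.19 and 10.32 (-0.18), and limma called 0 of 9 (1 at an unadjusted p under 0.05), where 0.102% of genes were called. By 24 h limma called 0 of 9 for either compound in either line; the unadjusted counts were 0 and 1 for BIX-01294 and 0 and 0 for BRD-K62233722 in αTC1 and βTC3, with 1.6% and 1.2% of genes called for BIX-01294 and 0.00847% and 0.0932% for BRD-K62233722. In βTC3 at 24 h Hspa5 stood at 11.29, 11.33 and 11.49 with BIX-01294 and at 11.53, 11.47 and 10.99 with BRD-K62233722, around the DMSO median of 11.42.

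**Figure D4:**
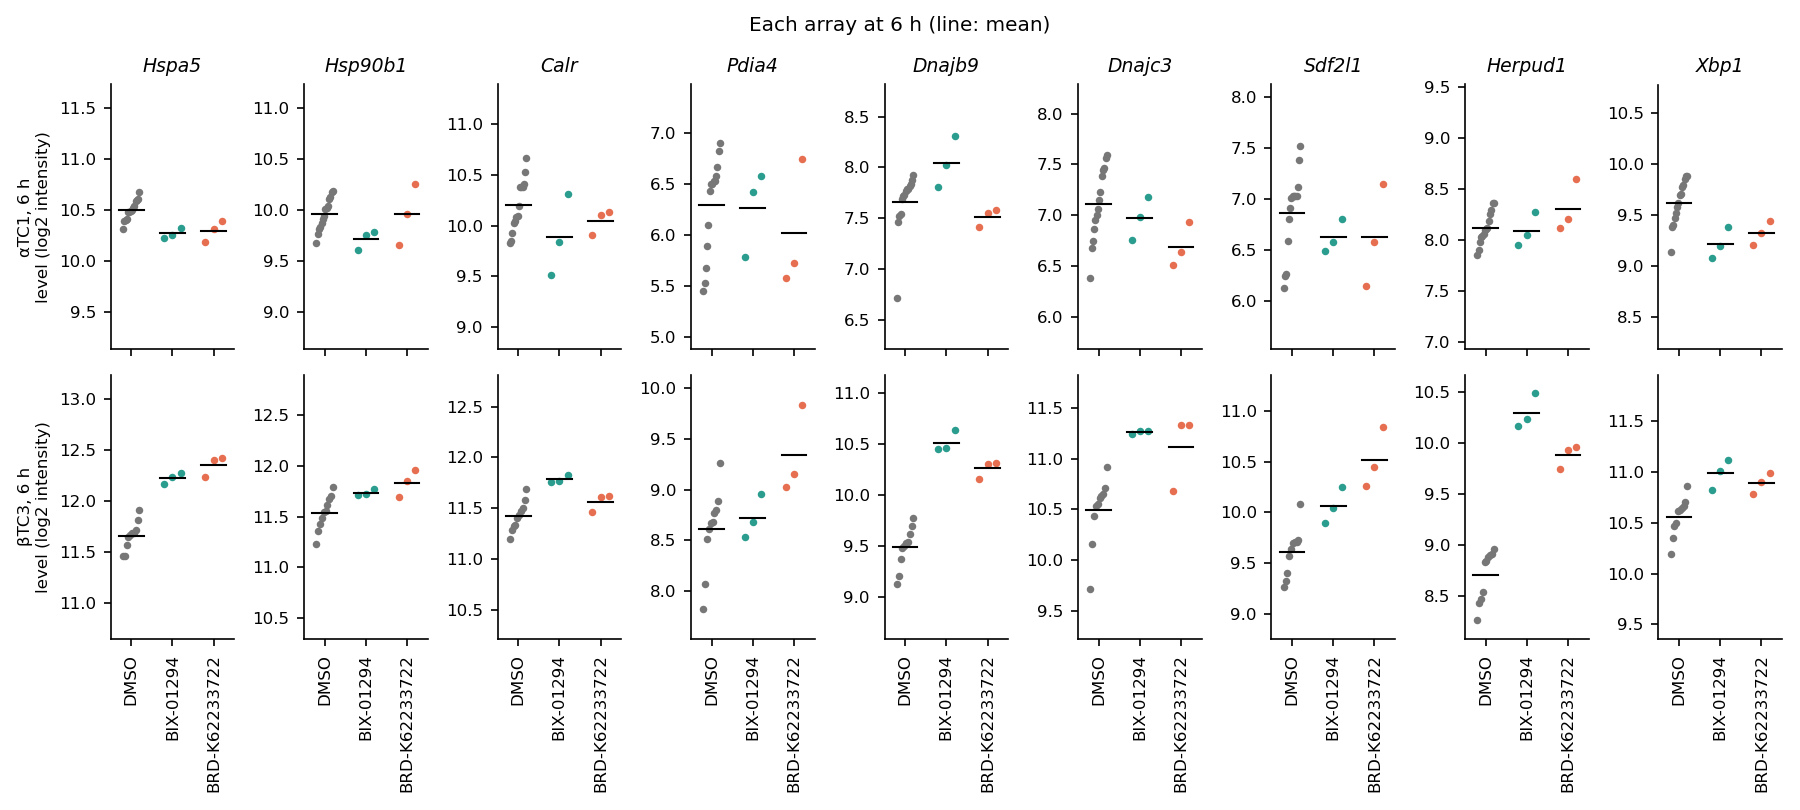
Level (log2 intensity) of the 9 genes in each array at 6 h under DMSO, BIX-01294 and BRD-K62233722, in αTC1 and βTC3, with a line at each group's mean. In βTC3 the treated arrays of Herpud1, Hspa5 and Dnajb9 lie above all DMSO arrays for both compounds (Herpud1 at 10.17 to 10.49 and 9.75 to 9.96). In αTC1 those of Hspa5 do not, and those of Herpud1 do so only in part with BRD-K62233722 and not with BIX-01294. Of the 3 αTC1 Dnajb9 arrays with BIX-01294, 2 do (8.02 and 8.31). The αTC1 changes of Herpud1 and Dnajb9 were not called.

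Many genes of the other lists, which were chosen with earlier results known, were also called in the same βTC3 arrays. Activity of the sensors was not measured. With BIX-01294, 16 of 17 PERK and ATF4 targets were higher and 0 lower (median 0.96 against 0.012 over all genes), led by the pseudokinase gene Trib3 (2.87 ± 0.168), Ddit3 (CHOP; 2.19 ± 0.176), Nupr1 (2.11 ± 0.195) and Chac1 (1.95 ± 0.144). Of 15 other degradation genes, 9 were higher (median 0.37; Derl3 2.38 ± 0.243, Sel1l 1.30, Syvn1 1.17, Edem1 1.16), and of 15 other folding genes 8 were higher (median 0.27; Creld2 1.19 ± 0.0898, Ero1a 0.74), 5 without the batch term. The sensors Atf6 (1.05) and Eif2ak3 (PERK itself; 0.63) were higher, and 4 of 11 cytosolic heat shock genes were lower (Dnaja1 -0.54, Stip1 -0.52). With BRD-K62233722, 13 of 17 PERK and ATF4 targets were higher (median 0.63 against -0.009; Ddit3 1.67 ± 0.179, Nupr1 1.63, Trib3 1.62), as were 8 of 15 folding genes (Creld2 1.24, Hyou1 0.82; 4 without the batch term) and 7 of 15 degradation genes (Derl3 2.98 ± 0.248, Sel1l 1.44), while limma called 0 of 11 heat shock genes, 2 of them with an unadjusted p under 0.05.

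In αTC1 at 6 h BIX-01294 had 0 of 15 folding and 0 of 15 degradation genes called by limma (1 of each at an unadjusted p under 0.05). It raised Eif2ak3 (1.28 ± 0.137) and Ddit3 (0.97 ± 0.203) and lowered 5 of 17 PERK and ATF4 targets, among them Chac1 (-1.14), Trib3 (-0.62) and Phgdh (-0.43). BRD-K62233722 had 0 called by limma there among 15 folding, 15 degradation and 17 PERK and ATF4 target genes (3, 0 and 3 at an unadjusted p under 0.05). In βTC3 at 24 h BIX-01294 still had 6 of 17 PERK and ATF4 targets higher (Trib3 1.32, Nupr1 1.04) with 0 of 15 folding genes called by limma (2 at an unadjusted p under 0.05). Among cell type markers, 2 of 8 beta cell markers were lower in βTC3 at 6 h with BIX-01294 and 0 were called with BRD-K62233722; their part in the result was not tested.

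Chaetocin, a fungal epidithiodiketopiperazine that inhibits histone lysine methyltransferases, moved the genes in both directions in both lines. At 6 h Dnajb9 was higher in αTC1 (0.58) and βTC3 (0.48 ± 0.0904), where 32.7% and 23.6% of all genes were called. In αTC1 at 6 h Calr was also higher (0.30), and Hspa5 (-0.19) and Xbp1 (-0.35) were lower. At 24 h in αTC1, with 4 arrays and 47.9% of all genes called, 3 genes were higher and 4 lower. Xbp1 stood at 8.61, 8.35, 8.8 and 8.82, under every DMSO array (-1 ± 0.108, adjusted p = 1.95e-12), and Herpud1 at 8.96, 9.62, 9.27 and 9.06 (0.76 ± 0.119, adjusted p = 1.02e-07), of which 2 lay above every DMSO array. Dnajb9 was higher by 0.93 ± 0.128 without overlap. Hspa5 at 10.16, 10.23, 10.38 and 10.53 (-0.31, adjusted p = 0.000924), Calr (-0.31, adjusted p = 0.00546) and Sdf2l1 (-0.64, adjusted p = 0.0183) were lower, and the 4 lower calls became 2 without replicate 1 or replicate 2 and after quantile normalisation. Dnajc3 was called higher (0.72), but its probe sets disagreed, with another at -0.34.

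At 24 h in βTC3, with 30.9% of all genes called, 1 gene was higher and 5 lower. Xbp1 stood at 8.65, 9.44 and 9.5 (-1.08 ± 0.12, adjusted p = 1.16e-11), Calr at 10.3, 10.55 and 10.57 (-0.81 ± 0.094, adjusted p = 5.32e-11) and Hspa5 at 10.52, 10.92 and 10.84 (-0.61 ± 0.0681, adjusted p = 1.79e-11). In all 3 genes every treated array was under every DMSO array. Sdf2l1 (-0.73, adjusted p = 0.0101) and Hsp90b1 (-0.32, adjusted p = 0.00645) were lower and Dnajb9 was higher (0.72 ± 0.121), and the 5 lower calls became 3 without replicate 1 or replicate 3. In these arrays the PERK and ATF4 targets stood apart from the chaperones: 15 of 17 were higher and 0 lower (median 1.28 against -0.02; Atf3 2.53, Nupr1 2.02, Ddit3 1.99), while 10 of 15 other folding genes were lower and 2 higher (median -0.29; Pdia6 -1.06, Uggt1 -1.0, Hyou1 -0.99) and 8 of 15 degradation genes were lower and 0 higher. At 24 h under chaetocin, 5 of 8 markers of fibroblasts, endothelium and blood were called higher in αTC1 and 3 of 8 in βTC3. In DMSO these markers had means of 2.75 to 3.86 in αTC1 and 2.67 to 3.29 in βTC3, all under the median gene. In αTC1, 4 of 6 alpha cell markers were lower, and 3 of 8 beta cell markers were lower and 1 higher. In βTC3, 4 of 8 beta cell markers were lower and 1 of 6 alpha cell markers was higher. The part of the markers in the result was not tested.

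Among the code-named compounds, BRD-K17311666 and BRD-K92415738 each raised 7 of the 9 genes in αTC1 at 6 h, the most of any compound there, where 19.9% and 18.6% of all genes were called higher. The 7 were Hspa5, Hsp90b1, Calr, Pdia4, Dnajb9, Dnajc3 and Sdf2l1 with both, at 0.51 (Hsp90b1) to 1.04 (Pdia4) and at 0.45 (Dnajb9) to 0.94 (Pdia4), and Herpud1 was lower with BRD-K17311666 (-0.38). Under BRD-K17311666 Hsp90b1 stood at 10.44, 10.45 and 10.48, above every DMSO array (0.51), and under BRD-K92415738 Calr stood at 10.93, 11.03 and 11.15 (0.82), also above all of them. In βTC3 at 24 h BRD-K22912318 had 7 genes called lower and 0 higher (8.85% of all genes called lower), but its arrays were spread, with Sdf2l1 at 9.2, 8.47 and 7.57 (-0.93) and Pdia4 at 8.68, 7.29 and 6.75 (-0.87). The other 5 were Herpud1 (-0.78), Xbp1 (-0.58), Dnajc3 (-0.39), Hsp90b1 (-0.36) and Hspa5 (-0.35). In Sdf2l1 and Pdia4 replicate 3 was the lowest array and replicate 1 lay well inside the DMSO range. Against DMSO of the same batch, Sdf2l1 (-1.22 to -0.86) and Pdia4 (-1.57 to -0.28) were lower in each of 3 batches. Of the other 5 genes, Dnajc3 was higher in 1 batch and lower in 2 (-1.01 to 0.22).

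AMI-1, RG-0108 and BRD8451 had 0 of 9 genes called by limma at 6 or 24 h in either line. Counted at an unadjusted p under 0.05, AMI-1 had 0 genes in these 4 comparisons, where 0% of all genes were called. RG-0108 had 4 and 1 in αTC1 at 6 and 24 h (0.0423% and 0% of all genes called) and 0 and 0 in βTC3 (0% at both times). BRD8451 had 2 and 2 in αTC1 (0% and 0.263%) and 1 and 1 in βTC3 (0.0169% and 2.63%). The nucleoside analogue 5-azadeoxycytidine raised Herpud1 in βTC3 at 24 h, with arrays at 9.84, 9.34 and 9.31, in the upper DMSO range or above it (0.47; 3.34% of all genes called higher). Zebuarine lowered Hspa5 there, with arrays at 11.28, 11.1 and 11.65 (-0.25), of which 1 lay under the DMSO range and 2 within it; 1.82% of all genes were called lower.

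Related compounds were compared at a matched dose in 2 pairs, both at 10 µM, each in 2 lines at 3 times, which makes 12 comparisons. ITF-2357 and pyroxamide, both hydroxamic acids, differed in 4 genes in βTC3 at 6 h, where 5.12% of all genes were called. Hspa5 stood at 12.26, 12.46 and 12.41 with ITF-2357 and at 11.78, 11.84 and 11.82 with pyroxamide, without overlap (difference 0.57), and Herpud1 at 8.93, 9.01 and 9.1 against 8.5, 8.23 and 7.66 (0.88), also without overlap. Calr (0.32) and Hsp90b1 (0.31) were also higher with ITF-2357, and of the 4 calls 1 remained without the batch term. In βTC3 at 24 h Herpud1 was lower with ITF-2357 (-0.48; 16.3% of genes called), a call lost without the batch term, and the 3 ITF-2357 arrays of that group all lay in batch 10. In αTC1 limma called 0 of 9 genes at 6 h and 24 h (0.788% and 2.34% of genes called), with 1 and 2 at an unadjusted p under 0.05 and 95% intervals of the differences from -0.49 to 1.33 at 6 h and from -0.88 to 0.82 at 24 h over the 9 genes. At 1 h limma called 0 of 9 and 0% of all genes in both lines (unadjusted, 0 of 9 in αTC1 and 1 in βTC3), with intervals from -0.69 to 0.73 in αTC1 and from -0.45 to 1.08 in βTC3.

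The nucleoside analogues 5-azadeoxycytidine and zebuarine differed in 0 of 9 genes by limma in all 6 comparisons. Unadjusted counts in αTC1 and βTC3 were 1 and 0 at 1 h (0% and 0.00847% of all genes called), 4 and 3 at 6 h (0.0762% and 0%), and 1 and 0 at 24 h (6.19% and 0.229%). The 95% intervals over the 9 genes ran from -0.49 to 1.25 in αTC1 and from -0.37 to 1.35 in βTC3 at 1 h, from -0.7 to 1.55 in αTC1 and from -1.41 to 0.58 in βTC3 at 6 h, and from -0.53 to 0.93 and from -0.44 to 1.04 at 24 h. These intervals leave room for differences of over 1 log2 unit in some genes, so the lack of calls does not show that the analogues act alike. The other hydroxamic acids, the anilides and the tetrapeptides differed in dose and are given side by side only. RG-0108, CI-994 and the code-named compounds at 10 µM were not paired here.

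The difference between the lines was itself tested, as the change against DMSO in βTC3 minus that in αTC1. At 1 h limma called 0 of 261 combinations (10 at an unadjusted p under 0.05), where 0.00321% of all gene and compound combinations were called higher and 0.000876% lower. At 6 h 14 (5.36%) were called higher in βTC3 and 64 (24.5%) lower, against 3.89% and 4.39% of all gene and compound combinations. The share higher at 6 h was thus near that of all genes. At 24 h 2 (0.766%) were higher and 74 (28.4%) lower, against 5.75% and 5.29%. The lower calls at 6 h became 41 after centring, and leaving out 1 replicate of every compound gave 38 to 50 of them, 8 to 10 higher calls at 6 h, and 47 to 74 lower and 0 to 2 higher at 24 h. At 24 h the lower calls were spread over Dnajb9 and Xbp1 (14 compounds each), Hspa5 (12), Sdf2l1 (11), Calr and Dnajc3 (8 each), Herpud1 (4), Hsp90b1 (2) and Pdia4 (1). The 2 higher calls both belonged to Herpud1.

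For the hydroxamic acids at 24 h, 7 of the 9 genes differed, all lower in βTC3, where 16.6% of all genes were called lower. Hspa5 was 0.30 above DMSO in αTC1 and -0.23 in βTC3, a difference of -0.52 ± 0.0711 (adjusted p = 4.3e-10). Dnajb9 differed by -0.91 ± 0.103 (adjusted p = 2.3e-13), Sdf2l1 by -0.96 ± 0.188, Dnajc3 by -0.73 ± 0.127 and Xbp1 by -0.64 ± 0.0942. Calr differed by -0.44 and Pdia4 by -0.61 ± 0.239 (adjusted p = 0.0367), the latter lost without the batch term, after centring and without replicate 2. Herpud1 fell in both lines, and its difference of 0.24 was not called. At 6 h 6 genes differed, all lower in βTC3 (16.7% of genes called lower), with Xbp1 furthest apart at -1.02 ± 0.0916 (adjusted p = 5.52e-19) and Hspa5 at -0.41 ± 0.0587 (adjusted p = 1.87e-09).

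For the anilides at 24 h all 9 genes were lower in βTC3 relative to αTC1 (14.1% of all genes called lower). Sdf2l1 differed by -1.31 ± 0.239, Xbp1 by -0.88 ± 0.119 (adjusted p = 4.53e-10), Dnajb9 by -0.67 and Hspa5 by -0.49 ± 0.0902. Xbp1 rose in αTC1 and fell in βTC3 under these compounds. Herpud1 (-0.45, adjusted p = 0.00523) and Dnajc3 (-0.41, adjusted p = 0.0424) were closer to the threshold. At 6 h the anilides differed between the lines in 3 genes (11.7% called), with Dnajc3 (0.64) and Dnajb9 (0.40) higher in βTC3 and Xbp1 lower (-0.40). For the cyclic tetrapeptides Hspa5, Calr, Sdf2l1 and Xbp1 were called at 6 h and Hspa5, Dnajb9, Sdf2l1 and Xbp1 at 24 h, all lower in βTC3, where 9.79% and 10.7% of genes were called lower. By compound at 24 h, 5 genes were lower in βTC3 with apicidin (22.9% of all genes called) and limma called 0 with HC-toxin (1 at an unadjusted p under 0.05; 6.87% called).

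**Figure D5:**
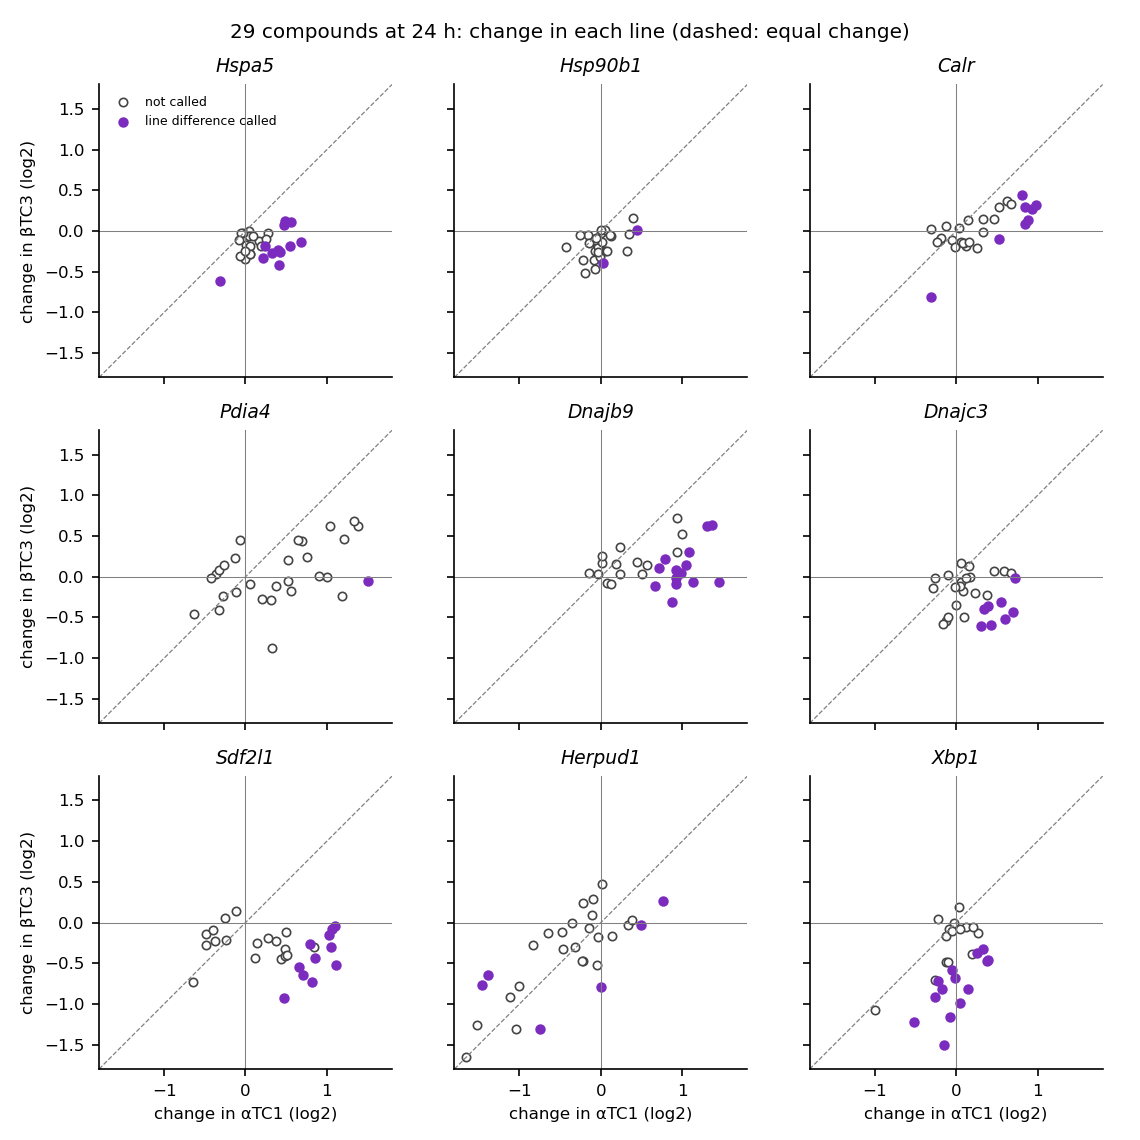
Change against DMSO at 24 h (log2) in αTC1 (horizontal) and βTC3 (vertical) for each of the 29 compounds, 1 panel per gene, with filled points where the difference between the lines had an adjusted p under 0.05. Filled points lie below the diagonal in 74 of 76 cases, with 14 in the Dnajb9 and 14 in the Xbp1 panel.

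BIX-01294 and BRD-K62233722 at 6 h ran the other way. For BIX-01294 6 genes were higher in βTC3 relative to αTC1, where 2.12% of all genes were: Herpud1 by 1.55 ± 0.203 (adjusted p = 1.87e-09), Dnajc3 by 0.89, Hspa5 by 0.79 ± 0.107 (adjusted p = 6.15e-09), Xbp1 by 0.78, Dnajb9 by 0.67 and Calr by 0.65. For BRD-K62233722 5 were higher, where 0.788% of all genes were: Dnajc3 by 1.03, Herpud1 by 1.01, Dnajb9 by 0.90, Hspa5 by 0.89 ± 0.106 (adjusted p = 1.16e-10) and Xbp1 by 0.62. The BIX-01294 differences of Calr and Dnajb9 and the BRD-K62233722 differences of Herpud1 (0.81, adjusted p = 0.173, without replicate 3) and Xbp1 were lost when single replicates were left out.

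Across the 90 group means of a line (29 compounds and DMSO at 3 times), the genes did not move as 1 block. These correlations are descriptions over group means that share DMSO arrays and batches, and carry no p. In αTC1 the Pearson r with Hspa5 was 0.819 for Calr, 0.693 for Pdia4, 0.655 for Dnajc3, 0.579 for Sdf2l1, 0.568 for Hsp90b1, 0.383 for Dnajb9, 0.121 for Xbp1 and -0.427 for Herpud1. In βTC3 it was 0.866 for Hsp90b1, 0.758 for Dnajc3, 0.594 for Sdf2l1, 0.553 for Pdia4, 0.524 for Calr, 0.265 for Herpud1, 0.259 for Dnajb9 and 0.237 for Xbp1. Herpud1 and Xbp1 had an r of 0.731 with each other in βTC3 and 0.137 in αTC1. Outside the 9, the genes with the highest r with Hspa5 in βTC3 were Hyou1 (0.858), Uso1 (0.854), Edem1 (0.854), Creld2 (0.852) and Slc7a5 (0.849). Of these, Hyou1, Edem1 and Creld2 stand on the lists of ER folding and degradation genes used here, and Slc7a5 on that of PERK and ATF4 targets. In αTC1 they were Svbp (0.922), Rnf34 (0.906), Tdrd7 (0.9), Hpcal1 (0.9) and Pttg1ip (0.895), of which 0 stand on those lists.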

How the data were processed

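The authors deposited 1 table of 22716 probe sets by 594 arrays whose linear intensity values were made with RMA (background correction, quantile normalisation and probe summary), as the submitters' processing notes name it, with its version not given in the sources used here. Labelled cRNA was made from 1 µg of total RNA, per the labels' protocols. RMA shrinks differences of dim probe sets, and a quantile step can mask a shift shared by most genes. The deposited intensity values (3.96 to 13635) were turned to log2 here. A gene was read from its probe set with the highest mean; 18003 probe sets had 1 symbol, 287 several and 4426 none, and those with several or none were left out, leaving 11807 genes. The 9 genes had 20 probe sets, and in 17 of 264 comparisons another probe set of a gene had the opposite sign beyond 0.1, 12 of them in Dnajc3.

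Each line and time was fitted with limma 3.58.1 (R 4.3.3) over all its arrays with batch (7 levels) as a fixed term, class values as equally weighted means of compounds, and line differences per time over both lines. Benjamini-Hochberg adjustment ran over all genes within a comparison. Replicates of a compound lay in different batches in all but 2 of 174 groups. DMSO arrays carry no replicate number, so only the compound pairs could be given a replicate block. Equal replicate numbers of paired compounds did not always share a batch, so this block is not a true pairing. On simulated data the fit recovered 67% of changes of 0.5 and 97% of changes of 1 for BIX-01294 in βTC3 at 6 h (100 genes each among 11807). It made 6 false calls, and 0 calls in a run with nothing changed. For its line difference the shares were 34% and 94%, with 8 false calls, and a run with nothing changed was not made. Simulated errors were independent, with a batch effect but no plate effect, so these shares may be too favourable.

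The 9 genes and the gene lists were chosen with earlier results of these data known. The rule takes all 9 genes in every comparison, of which the text names those a comparison turns on and counts the rest; beyond them the text names the compound with the largest called rise and fall of a gene, up to 4 called genes with the largest change per list, and the 5 genes most like Hspa5. Alternatives were fits without batch, with plate as a random block, after quantile normalisation or centring, without dim genes, with mean probe sets, with only the arrays compared, with batch nested in line, and without each replicate. Promoter windows were matched by symbol for 9 of 9 genes.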

Additional observations from a re-analysis of the deposited data

Results flagged for a closer look

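Each value here is a change against DMSO in βTC3 minus the same change in αTC1 (log2), picked out because limma called the difference between the lines. All share the DMSO arrays of their line and time, and no cause was tested.

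At 6 h the hydroxamic acids differed for Hspa5 (-0.41), Calr (-0.45), Dnajb9 (-0.44), Dnajc3 (-0.48), Sdf2l1 (-0.87) and Xbp1 (-1.02). The cyclic tetrapeptides differed for Hspa5 (-0.38), Calr (-0.43), Sdf2l1 (-1.04) and Xbp1 (-0.95), and the anilides for Dnajb9 (0.4), Dnajc3 (0.64) and Xbp1 (-0.4). BIX-01294 was higher in βTC3 for Hspa5 (0.79), Calr (0.65), Dnajb9 (0.67), Dnajc3 (0.89), Herpud1 (1.55) and Xbp1 (0.78), and BRD-K62233722 for Hspa5 (0.89), Dnajb9 (0.9), Dnajc3 (1.03), Herpud1 (1.01) and Xbp1 (0.62).

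The single compounds with the largest difference per gene at 6 h were BRD-K17311666 for Hsp90b1 (-0.54), Pdia4 (-1.52) and Sdf2l1 (-1.86), and pyroxamide for Calr (-0.65), Dnajc3 (-1.1) and Xbp1 (-1.32). Under BRD-K17311666 Pdia4 stood at 7.51, 7.75 and 7.49 in αTC1, above all DMSO arrays, and at 9.01, 7.5 and 8.52 in βTC3, where replicate 2 was the lowest.

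At 24 h the hydroxamic acids differed for Hspa5 (-0.52), Calr (-0.44), Pdia4 (-0.61), Dnajb9 (-0.91), Dnajc3 (-0.73), Sdf2l1 (-0.96) and Xbp1 (-0.64). The anilides differed for Hspa5 (-0.49), Hsp90b1 (-0.43), Calr (-0.43), Pdia4 (-0.85), Dnajb9 (-0.67), Dnajc3 (-0.41), Sdf2l1 (-1.31), Herpud1 (-0.45) and Xbp1 (-0.88), and the tetrapeptides for Hspa5 (-0.33), Dnajb9 (-0.73), Sdf2l1 (-0.95) and Xbp1 (-0.67). The single compounds with the largest difference were ITF-2357 for Hspa5 (-0.87) and Dnajb9 (-1.51), CI-994 for Hsp90b1 (-0.54), trichostatin A for Calr (-0.75), pyroxamide for Pdia4 (-1.37), Dnajc3 (-1.21) and Sdf2l1 (-1.53), BRD5298 for Herpud1 (-0.86) and PXD101 for Xbp1 (-1.26). With pyroxamide Sdf2l1 stood at 8.18, 8.13 and 8.11 in αTC1, above all DMSO arrays, and at 8.4, 8.83 and 8.9 in βTC3, in the lower DMSO range. All 3 βTC3 arrays of ITF-2357 at 24 h lay in batch 10.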

How the results depend on the processing

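The higher mRNA of all 9 genes in βTC3 under DMSO was called in every alternative. Without the batch term, higher calls in βTC3 went from 52 to 33 at 6 h and from 13 to 8 at 24 h, lower calls at 24 h from 68 to 40, the single call at 1 h to 0, the ITF-2357 against pyroxamide calls in βTC3 from 4 to 1 at 6 h and from 1 to 0 at 24 h, and the DMSO time calls at 6 h from 2 to 0 in αTC1 and from 1 to 0 in βTC3. With plate as a random block, higher calls in αTC1 at 6 h went from 70 to 106, the βTC3 call at 1 h to 0, and the DMSO time calls at 24 h from 0 to 1 in αTC1 and from 1 to 4 in βTC3. With mean probe sets these last became 1 and 2, and the βTC3 calls at 1 h 2. With only the arrays compared, lower calls in αTC1 at 6 h went from 12 to 5 and the βTC3 call at 1 h to 0. Centring took the lower line differences at 6 h from 64 to 41, and quantile normalisation the αTC1 time calls at 6 h to 1. Leaving out 1 replicate of every compound gave 6 to 7 lower calls in αTC1 at 6 h, 0 to 2 calls in βTC3 at 1 h, 8 to 10 higher and 38 to 50 lower line differences at 6 h, 0 to 2 and 47 to 74 at 24 h, and, for the pair ITF-2357 and pyroxamide, 1 to 3 calls in βTC3 at 6 h, 0 to 0 at 24 h and 0 to 1 in αTC1 at 24 h; for 5-azadeoxycytidine against zebuarine in αTC1 at 24 h it gave 0 to 1. With a replicate block the pair counts stayed at 4 and 1 in βTC3 at 6 and 24 h and 0 elsewhere. As equal replicate numbers did not always share a batch, these unchanged counts say little. Of single values, 2768 stayed the same, 164 lost their call, 68 gained one and 0 reversed. Another 12, called in neither fit, moved by more than the SD of the gene's DMSO arrays. Dim genes, and Pdia4 and Sdf2l1 with their wide spread between arrays, limit what 3 arrays can show.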
